A study of Mus musculus with 6 samples.

Results

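The CC chemokines Ccl2, Ccl3, Ccl4, Ccl5, Ccl7, Ccl12, Ccl17, Ccl20 and Ccl22 and the receptor Ccr2 were followed in mouse lung during endotoxaemia. These 10 genes were taken by name, as the CC chemokines that draw monocytes and lymphocytes and the main monocyte receptor, and the brightest probe of each stood for the gene. Of the 10, 9 passed the filter on dim probes and were tested among 16370 genes. Ccl22 did not pass it, because its probe was not well above background on all 3 arrays of either group. Lungs came from male C57BL6 mice, 10 weeks old and starved for 16 h, all of which had received LPS i.p. at 20 mg per kg. One group was then injected with saline and the other with rhTM, a recombinant human soluble thrombomodulin, at 3 h and 24 h after LPS, and lungs were taken at 30 h. Each group held 3 mice, and a separate 1-colour array was used for every animal. Because both groups had received LPS and lungs without LPS were not analysed here, the values compare rhTM with saline in endotoxaemic lung and say nothing of what LPS did to a gene.

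Chemokines are small secreted proteins that bind to heparan sulfate on the vessel wall and draw leukocytes through G protein-coupled receptors. Members of the CC class fall into families by receptor. Ccl2, Ccl7 and Ccl12 act on Ccr2 and release and recruit inflammatory monocytes, Ccl3, Ccl4 and Ccl5 attract monocytes and T cells, Ccl3 and Ccl5 in part through Ccr1, Ccl17 and Ccl22 act on Ccr4 of T helper and regulatory T cells, and Ccl20 acts on Ccr6 of B cells, T cells and immature dendritic cells.

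Genes of the same family also lie side by side in the genome. By the RefSeq gene order, Ccl2 and Ccl7 were direct neighbours on chromosome 11, and 2 genes lay between Ccl7 and Ccl12. Ccl3 and Ccl4 were likewise neighbours with 0 genes between them. On chromosome 8, 3 genes lay between Ccl22 and Ccl17, and Cx3cl1, the ligand of Cx3cr1, was among them. The RefSeq promoter table held 6 of the 10 members, and the promoters of Ccl12 and Ccl17 are shown because, of all pairs of tested members, the levels of these followed each other most closely from array to array. Each is given as the 250 bases before the start of transcription on the gene's own strand, 5′ to 3′, in build GRCm38.p6, with capitals for matches to TATAAA, the TATA box.
Ccl12, chr11:82101595-82101844, plus strand: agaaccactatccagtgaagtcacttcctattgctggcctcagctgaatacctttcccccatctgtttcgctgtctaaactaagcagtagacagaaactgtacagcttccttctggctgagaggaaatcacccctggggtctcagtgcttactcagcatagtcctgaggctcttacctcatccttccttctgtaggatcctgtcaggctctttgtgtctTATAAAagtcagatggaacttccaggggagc
Ccl17, chr8:94810203-94810452, plus strand: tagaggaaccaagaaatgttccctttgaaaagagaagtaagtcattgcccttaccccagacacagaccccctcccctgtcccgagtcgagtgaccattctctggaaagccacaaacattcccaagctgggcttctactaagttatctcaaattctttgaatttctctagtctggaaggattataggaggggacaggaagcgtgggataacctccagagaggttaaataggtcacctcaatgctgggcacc
In the Ccl12 promoter the TATA box began 31 bases before the start. Searched on both strands, TATAAA was present in 12.4% of 32851 promoters of the same length and in 1 of the 6 member promoters, that of Ccl12. TGANTCA, an AP-1-like motif, was present in 6.75% of all promoters and in 0 of the 6. The Ccl17 window held no match to either.

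All levels are given as processed signals divided by the 75th percentile of the signal on the same array, so that a level of 1 is that percentile. Levels of different genes are not compared, because each probe has its own brightness. Between 36002 and 40503 of the 56207 probes usable on every array were well above background on an array, and none was saturated. The markers Sftpc of alveolar type 2 cells, Ager of alveolar type 1 cells and Scgb1a1 of club cells were well above background on all 6 arrays. The arrays lay on 2 slides, with saline 1 and rhTM 3 on slide 2 and the other 4 on slide 1. In the authors' own table of values the columns of saline 1 and rhTM 2 are exchanged relative to the scanner output. The column named saline 1 equalled the scanner array of rhTM 2 at 99.9% of probes within 0.1%, and equalled its own array at 0.137%. Which assignment is right could not be settled, so results are given from the scanner output as assigned and again from the table. Because the lung was measured as bulk tissue, fewer cells of a type and less RNA per cell cannot be told apart.

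No member passed the test. In limma over 16370 genes, 0 of the 9 members tested and 0% of all genes had an adjusted p under the threshold of 0.05, and the lowest adjusted p of any gene was 0.99994. At an unadjusted p under 0.05, 0 of the 9 members and 1.87% of all genes (306 genes) were called. The mean was higher with rhTM for 3 members (Ccl3, Ccl5 and Ccl20) and lower for 6, against 50.7% and 49.3% of all genes. The median log2 fold change of the 9 members was -0.09 and that of all genes was 0.0026. Without rhTM 1 the mean was higher for 5 members and lower for 4, and their median was 0.0013. The groups did not overlap for 1 of the 9 members, Ccr2, and for 5.52% of all genes. By direction, 0 members and 2.95% of all genes were higher with rhTM without overlap, and 1 member and 2.57% of all genes were lower.

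**Figure D1:**
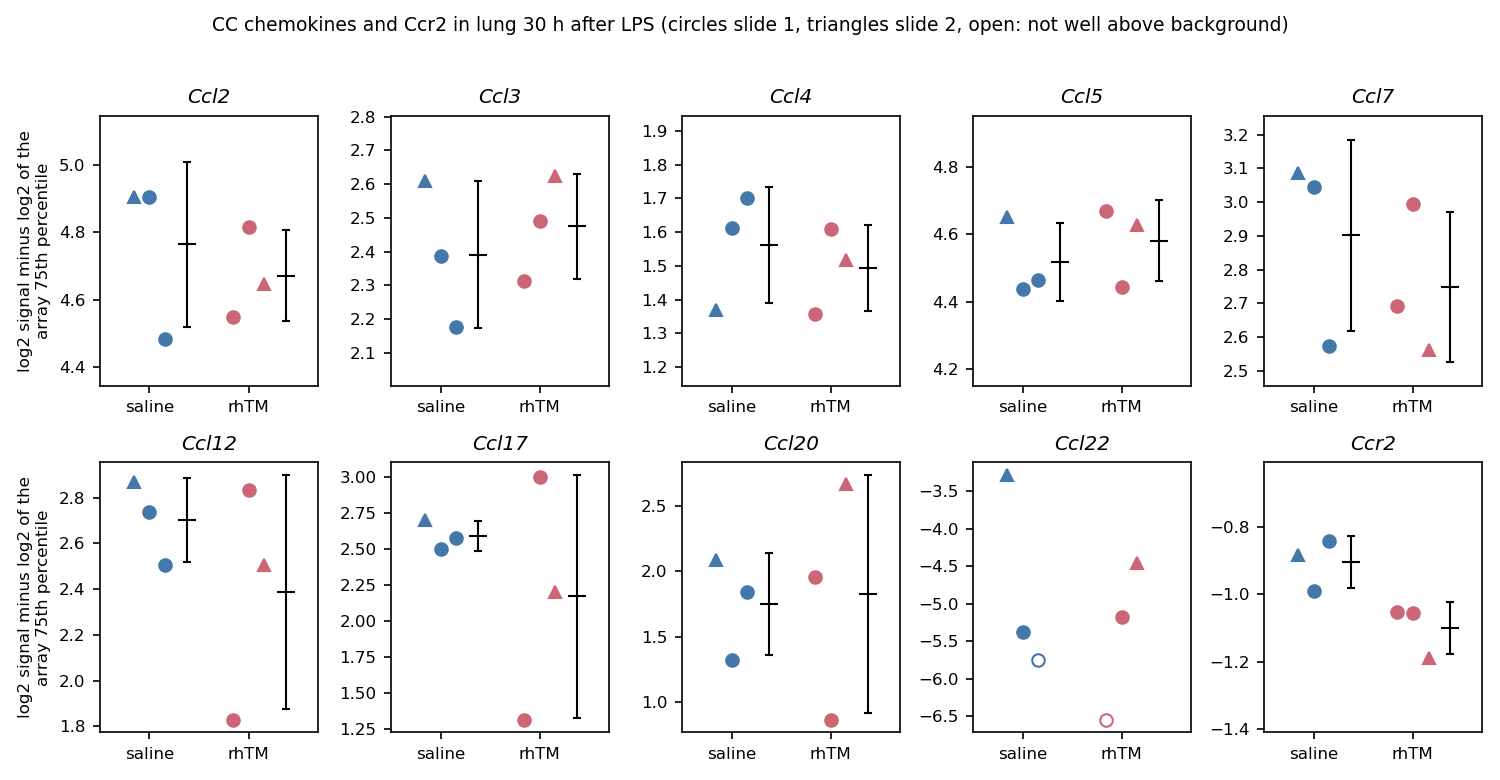
Level of each of the 10 genes on each array, on a log2 scale relative to the 75th percentile of the array, with saline in blue and rhTM in red. Circles are slide 1, triangles slide 2, open symbols were not well above background, and bars give the mean and SD of 3 arrays for the 9 genes tested. Each panel has its own axis, and only in the Ccr2 panel do the groups not overlap.

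Ccr2, the receptor by which inflammatory monocytes leave the bone marrow and enter inflamed tissue, had levels of 0.542, 0.503 and 0.558 in saline 1 to 3. In rhTM 1 to 3 its levels were 0.482, 0.481 and 0.438. All 3 rhTM arrays lay below all 3 saline arrays, and the array with the lowest level, rhTM 3, was on the same slide as saline 1. The means were 0.534 ± 0.0282 and 0.467 ± 0.0249 (SD, n = 3 each), a log2 fold change of -0.19 with an SE of 0.11 and a 95% interval of -0.47 to 0.08. The adjusted p in limma was 0.99994, and the exact two-sided permutation test gave p = 0.10, the smallest that 3 arrays against 3 allow. By unadjusted p the gene ranked 1185th of 16370. The difference was -0.14 within slide 1 and -0.31 within slide 2. In the authors' table the log2 fold change was -0.08 (adjusted p = 0.773 in limma) and the groups overlapped. Overlap was also seen when the background was corrected by normexp. The methods' t-test gave Ccr2, 1 of the 9 members, an unadjusted p under 0.05, against 2.08% of all genes. At the thresholds of the methods, a fold of at least 2 or below 0.5 with p below 0.01, it called 0 of the 9 members and 0.00611% of all genes (1 gene, Rgs5, named after its value was seen).

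Markers of monocytes and macrophages gave values in both directions. Of 8 monocyte markers, all tested, 4 had a higher and 4 a lower mean with rhTM, the median log2 fold change was -0.01, and 0 were at an unadjusted p under 0.05 in limma, against 1.87% of all genes. Their summed level was 593 to 637 in saline and 565 to 616 in rhTM. The groups did not overlap for 1 of the 8, Ly6c2, a defining marker of inflammatory monocytes, against 2.57% of all genes lower without overlap. It was at 299, 312 and 295 in saline and at 263, 287 and 283 in rhTM. By the authors' table Ly6c2 overlapped, while Ms4a4c and Itgam did not and were higher with rhTM, where 9.68% of all genes were higher without overlap. Their log2 fold changes there were 0.18 and 0.51. Both slide 2 arrays are rhTM in that table, so slide and group cannot be told apart except by rhTM 1. That array against the saline columns, all on slide 1, gave 0.13 for Ms4a4c and 0.05 for Itgam. Of 7 markers of interstitial macrophages, which in part come from monocytes, 6 had a lower mean with rhTM and 4 did not overlap (C1qa, C1qb, Apoe and Folr2), against the same 2.57% of all genes, and 1 (C1qb) had an unadjusted p under 0.05 in limma. Their summed level was 60.5 to 67.1 in saline and 51.5 to 59.9 in rhTM, and Apoe alone was at 31.0 to 32.6 and 25.9 to 30.9. Of 8 markers of alveolar macrophages, the resident cells of the airspace, 5 had a higher and 3 a lower mean with rhTM and the groups overlapped for all 8, with a summed level of 291 to 310 in saline and 282 to 345 in rhTM. By the authors' table the groups overlapped for all 7 interstitial markers. The part of monocyte or macrophage number in the Ccr2 values was not tested.

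The 3 ligands of Ccr2 differed between the groups by less than their spread. Ccl2, the main chemoattractant of monocytes, was at 30.0, 30.0 and 22.4 in saline and at 23.4, 28.2 and 25.1 in rhTM. Saline 3 was the lowest of the 6 arrays and lay below all rhTM arrays, while the other saline arrays lay above them, so the groups overlapped. The log2 fold change was -0.09 with a 95% interval of -0.48 to 0.29 (exact permutation p = 0.6).

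Ccl7, which also binds Ccr1 and Ccr3, was at 8.49, 8.24 and 5.96 in saline and at 6.47, 7.97 and 5.90 in rhTM. Saline 3 and rhTM 3 were the low arrays. Its log2 fold change was -0.15 with a 95% interval of -0.60 to 0.30, and it was 0.03 within slide 1 and -0.52 within slide 2. Ccl12, a further Ccr2 ligand of the mouse, was at 7.30, 6.67 and 5.68 in saline and at 3.55, 7.12 and 5.68 in rhTM. A single array, rhTM 1, stood below the other 5. The log2 fold change of -0.32 (95% interval -0.94 to 0.31, exact permutation p = 0.5) was -0.29 within slide 1 and -0.36 within slide 2, and it was -0.035 without rhTM 1 and -0.54 without rhTM 2.

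Ccl3, Ccl4 and Ccl5 ranged over 0.23 to 0.45 log2 units across the 6 arrays. Ccl3, a product of activated macrophages and neutrophils, was at 6.10, 5.23 and 4.52 in saline and at 4.97, 5.62 and 6.16 in rhTM. The high value of each group, saline 1 and rhTM 3, came from slide 2. The log2 fold change was 0.08 with a 95% interval of -0.29 to 0.46.

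Ccl4, its close relative and genomic neighbour, was at 2.59, 3.06 and 3.25 in saline and at 2.56, 3.05 and 2.86 in rhTM. The order of the arrays was not that of Ccl3, as saline 3 was highest for Ccl4 and lowest for Ccl3. Its log2 fold change was -0.07 (95% interval -0.40 to 0.27), and its 2 probes gave -0.16 and -0.07. Ccl5, which is made mainly by T cells and NK cells, was at 25.1, 21.7 and 22.1 in saline and at 25.4, 21.8 and 24.7 in rhTM. Saline 1, rhTM 1 and rhTM 3 had the high values and the other 3 arrays the low values, so that both sets held mice of both groups. Its log2 fold change was 0.06 with a 95% interval of -0.24 to 0.36.

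Ccl17, a product of dendritic cells and macrophages that attracts T cells through Ccr4, was at 6.52, 5.65 and 5.96 in saline and at 2.48, 8.02 and 4.60 in rhTM. The 3 saline arrays lay between the values of the rhTM arrays, with rhTM 2 above all of them and rhTM 1 and rhTM 3 below. On the log2 scale the SD was 0.10 in saline and 0.85 in rhTM, and the difference in spread was not tested. As levels, the means were 6.04 ± 0.439 in saline and 5.03 ± 2.79 in rhTM (SD, n = 3 each). In the authors' table the groups lay closer in spread, at levels of 6.54 ± 1.29 in saline and 4.53 ± 2.02 in rhTM (SD, n = 3 each). The log2 fold change was -0.42 with a 95% interval of -1.36 to 0.51 (exact permutation p = 0.6), and without rhTM 1 it was 0.01. Without rhTM 2, an exchanged array, it was -0.84 without overlap (adjusted p = 0.550 and unadjusted p = 0.0216 in limma), where 1379 genes had an unadjusted p under 0.05 and the groups did not overlap for 1918 genes higher and 2072 genes lower with rhTM.

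Ccl20, which epithelial cells release and which attracts cells bearing Ccr6, was at 4.24, 2.51 and 3.58 in saline and at 3.87, 1.82 and 6.35 in rhTM. The lowest and the highest of the 6 values both belonged to rhTM mice. Its log2 fold change was 0.08 with a 95% interval of -0.99 to 1.15 (exact permutation p = 0.9), and it was -0.17 within slide 1 and 0.58 within slide 2. Ccl22, the other Ccr4 ligand, was at 0.103, 0.0240 and 0.0185 in saline and at 0.0107, 0.0278 and 0.0455 in rhTM. Saline 3 and rhTM 1 were not well above background, so that the probe was measured on 2 arrays of each group, and no fold is given.

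**Figure D2:**
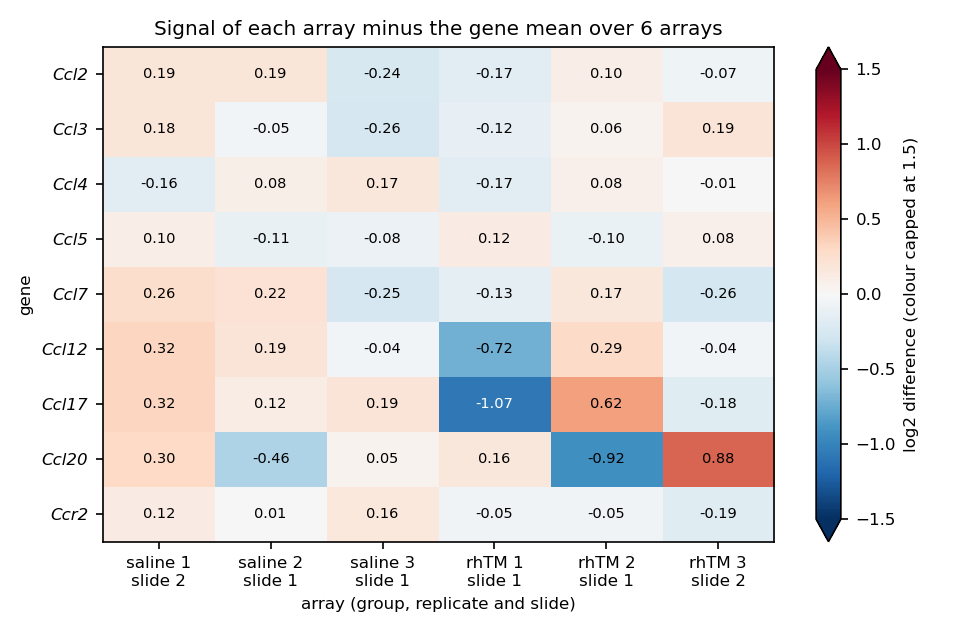
Log2 signal of each array minus the mean of the gene over the 6 arrays, with the 9 tested genes in rows and arrays in columns. Colours run from blue (below the mean) to red (above) and are capped at 1.5. The widest rows are those of Ccl17 and Ccl20, and rhTM 1 is at -0.72 for Ccl12 and -1.07 for Ccl17.

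From array to array, the members did not move as a single block. In the plot of centred values, saline 1 was the highest array for 3 tested members (Ccl2, Ccl7 and Ccl12) and above the mean for 8 of the 9. That array also had the lowest slope of signal against the amount of the spike-in RNAs, 0.826 against 1.07 to 1.09 on the other 5, and the most probes well above background, 40503. The part of these in its member values was not tested. Array rhTM 1 was the lowest for 3 (Ccl4, Ccl12 and Ccl17) and above the mean for 2. Over genes, its median absolute log2 difference from each other array was 0.21 to 0.31, against 0.12 to 0.24 for the pairs without it. Pearson correlations over the 6 arrays are given as a description, since arrays share scaling, slide and group. Ccl2 followed Ccl7 with r = 0.93 and Ccl12 with r = 0.73. With each array left out in turn, r between Ccl2 and Ccl7 was 0.90 to 0.99. Between Ccl2 and its receptor Ccr2 r was 0.02, with a range of -0.27 to 0.68 when an array was left out. Ccl12 and Ccl17, both lowest on rhTM 1, had r = 0.95, Ccl5 and Ccl20 had r = 0.76, and Ccl4 and Ccl5 had r = -0.90. No range with an array left out is given for these pairs, so the part of rhTM 1 in the first is not known.

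Among all genes tested, 113 of 16369 (0.69%) had an r of at least 0.9 with Ccl2, and Ccl7 was one of them. The 5 non-members most like Ccl2 over the 6 arrays were Cxadr (r = 0.99), a cell adhesion protein of tight junctions, Pvr (r = 0.99), an adhesion receptor of the nectin family, Pfdn6 (r = 0.99), a subunit of the prefoldin chaperone, Ppp3cb (r = 0.99), a catalytic subunit of calcineurin, and Pimreg (r = 0.99), a gene of proliferating cells. Their levels ranged over 0.21 to 0.55 log2 units between arrays, against 0.42 for Ccl2. The log2 fold changes of these 5 lay between -0.17 and -0.04. As they were chosen by likeness to Ccl2 on these same arrays, the direction they share with it is no separate result.

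For 2 of the 9 tested members, Ccl3 and Ccl20, both slide 2 arrays lay above all 4 arrays of slide 1. The lower slide 2 array exceeded the highest slide 1 array by 0.12 for Ccl3 and 0.13 for Ccl20 on the log2 scale, and the means of the slides differed by 0.28 and 0.88, while 0 tested members lay below in the same way. Of all genes, 13% lay above and 19.7% below in that sense. In the scanner output each slide 2 array belongs to a different group, so that with the slide as a block the fold changes were as given above and the adjusted p in limma was 0.920 to 0.972 for the 9 members. In the authors' table both arrays of slide 2 are rhTM, and slide 1 then holds a single rhTM array, rhTM 1.

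Under the authors' table, the direction of the mean was the same for all 9 members tested, with 4 of the 6 arrays in the same group in both sources, and the sizes differed. As in the scanner output, 3 members had a higher and 6 a lower mean with rhTM, against 46% and 54% of all genes. Again 0 of the 9 members and 0% of 16320 genes passed an adjusted p of 0.05 in limma. At an unadjusted p under 0.05, 1 member (Ccl20) was called among 14% of all genes, and the groups did not overlap for 3 members (Ccl20 and Ccl5 higher, Ccl4 lower) and for 21.7% of all genes, 9.68% higher and 12% lower. Ccl20 was at 2.63 ± 0.886 in saline and 4.82 ± 1.34 in rhTM (SD, n = 3 each), 1.86-fold higher or 0.89 on the log2 scale with a 95% interval of 0.19 to 1.59 (adjusted p = 0.317 in limma). The slide 2 arrays, which were high for Ccl20 in either assignment, are both rhTM here, so that slide and group cannot be told apart except by rhTM 1. That array against the 3 saline columns of slide 1 gave a log2 difference of 0.61.

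Ccl5 was at 21.8 ± 0.216 and 25.1 ± 0.366 in the table, a log2 fold change of 0.20 (adjusted p = 0.367 in limma). The 3 high arrays named above are exactly the rhTM columns of the table. Ccl4 had a log2 fold change of -0.23 there (adjusted p = 0.367 in limma), at 3.12 ± 0.114 and 2.67 ± 0.166. For Ccl17 and Ccl12 the table gave -0.62 and -0.29, and with the slide as a block -1.38 and -0.87, with an adjusted p of 0.0569 and 0.0710 in limma. Both blocked values rest on rhTM 1, the single rhTM array left on slide 1.

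**Figure D3:**
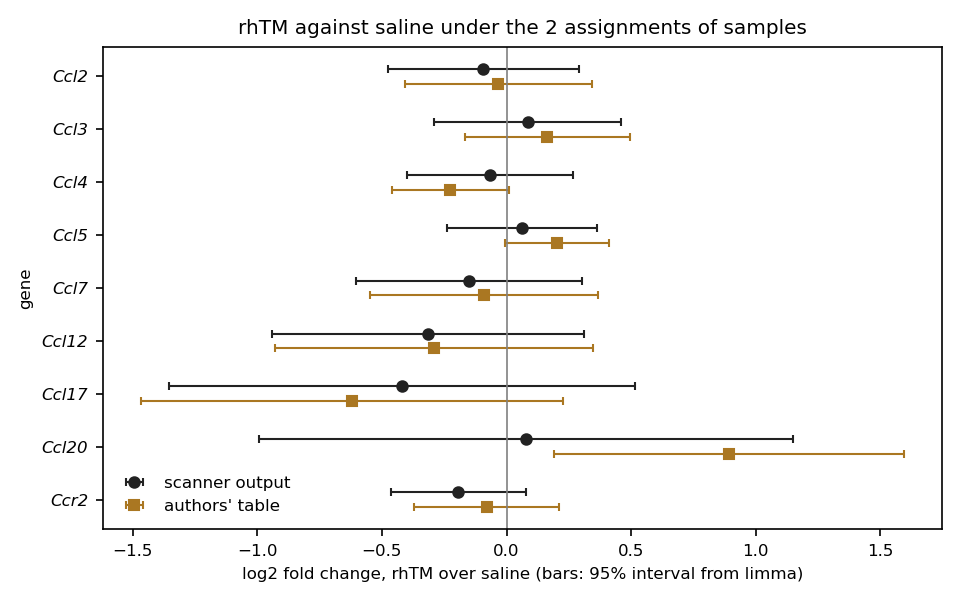
Log2 fold change of rhTM over saline for the 9 members tested, from the scanner output (black circles) and from the authors' table with its own assignment of samples (brown squares), with the 95% interval from limma. Every interval includes 0 except that of Ccl20 in the table, 0.19 to 1.59.

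With both exchanged arrays left out, 2 saline and 2 rhTM arrays remained whose labels are the same in either source. The groups then did not overlap for 5 of the 9 members (Ccl17, Ccl20, Ccl4, Ccl5 and Ccr2), against 41.2% of all genes, and 0 members passed at an unadjusted p under 0.05 in limma, against 1222 genes. The log2 fold changes were -0.78 for Ccl17, -0.46 for Ccl12, -0.22 for Ccl4, -0.21 for Ccr2, 0.20 for Ccl5 and 0.73 for Ccl20. Ccl2 was at -0.09.

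No other CC ligand passed the test. Of 12 other CC ligands, 10 were tested and 9 were well above background on all 6 arrays. Of these 9, 7 had a higher and 2 a lower mean in rhTM, at a median of 0.02 on the log2 scale, and in limma 0 passed an adjusted p of 0.05 and 0 an unadjusted p under 0.05. The tenth, Ccl28, a mucosal chemokine of epithelium, was well above background on all 3 saline arrays and on 0 rhTM arrays, so that it was tested only through the group where it was high. Its values allow a bound of at least 1.30-fold lower in rhTM, and its groups overlapped in the table. Ccl6, a chemokine of resident macrophages and neutrophils, had a log2 fold change of 0.21, at 76.9 ± 7.90 and 88.4 ± 3.85. Ccl11, the eosinophil attractant eotaxin, which lies between Ccl7 and Ccl12, had 0.12. In the table the groups did not overlap for 2 of 9 other CC ligands tested, both higher with rhTM, against 9.68% of all genes. These were Ccl11, at 0.65, and Ccl8, at 0.41 there and 0.01 in the scanner output. The same 2 had an unadjusted p under 0.05 in limma in the table, against 14% of all genes.

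Of 12 other CC receptors and atypical receptors, 8 were tested, 6 with a higher and 2 with a lower mean, and their median log2 fold change was 0.15. In limma 0 passed an adjusted p of 0.05 and 0 an unadjusted p under 0.05.

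Ccr1, a receptor of Ccl3, Ccl5 and Ccl7, had a log2 fold change of 0.29. In the table the groups did not overlap for 3 of the 8 receptors, with Ccr1 and Ccr7 higher and Ccr9 lower, against 9.68% of all genes higher and 12% lower. Ccr6, the receptor of Ccl20, was at 0.162 ± 0.0293 and 0.151 ± 0.0404 (SD, n = 3 each), a log2 fold change of -0.12. Ccr4, the receptor of Ccl17 and Ccl22, was well above background on 1 of the 6 arrays, rhTM 1, and Ccr3, an eosinophil receptor, on 2 saline arrays. Neither was tested. Ccr8, a receptor of regulatory T cells, had 0.80 with an SE of 0.43, a value that rested on rhTM 1 and was 0.34 without it. Ccr9, a gut-homing receptor, had -0.34, and -0.38 without rhTM 1. Scavenging receptors of inflammatory CC chemokines and their relative were at 0.14 for Ackr1, 0.19 for Ackr2 and 0.15 for Ccrl2, and the 2 probes of Ackr2 differed in sign (-0.12 and 0.19).

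**Figure D4:**
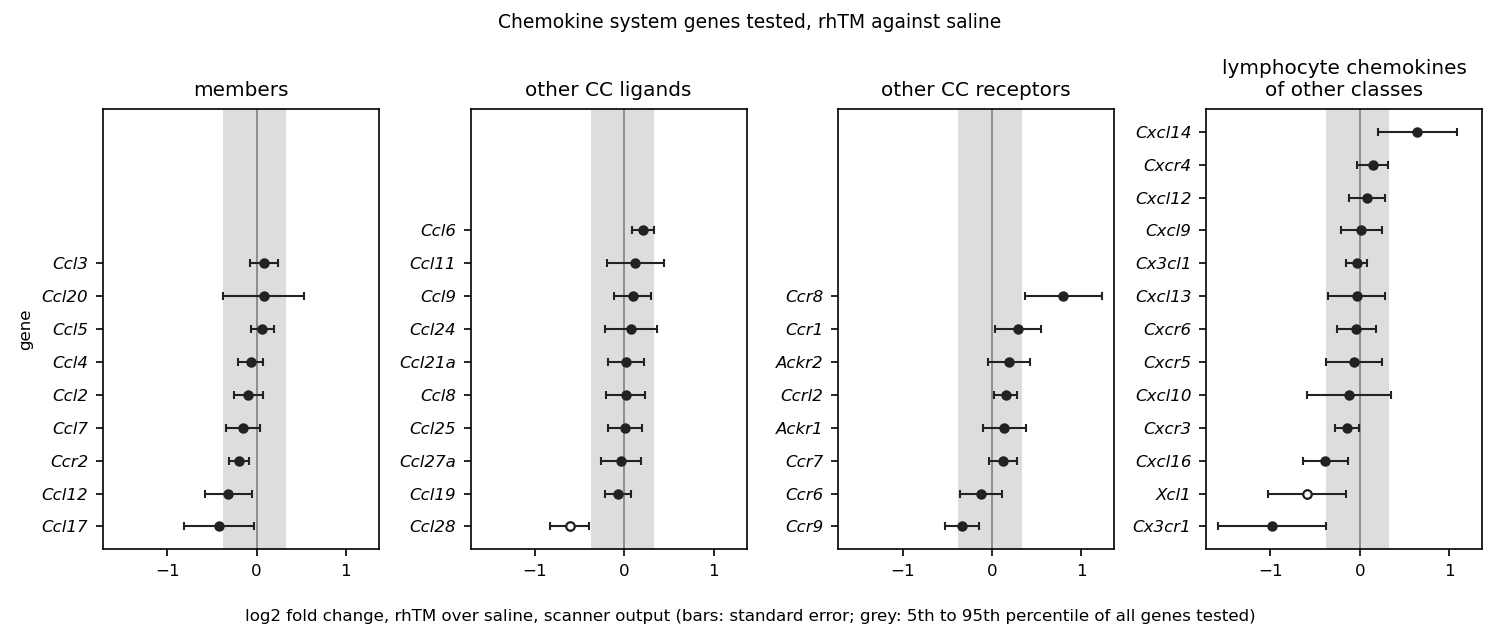
Log2 fold change of rhTM over saline from the scanner output for all tested genes of 4 lists, with the SE from limma. Open circles (Ccl28 and Xcl1) are genes not well above background on all 6 arrays, whose position is no measured fold. The grey band is the 5th to 95th percentile of all 16370 genes, -0.37 to 0.32, and 8 of the 9 members tested lie inside it, with Ccl17 outside.

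Of 15 lymphocyte chemokines and receptors of other classes, 13 were tested and 12 were well above background on all 6 arrays. Of these 12, 4 had a higher and 8 a lower mean, at a median of -0.04 on the log2 scale, and in limma 0 passed an adjusted p of 0.05 and 0 an unadjusted p under 0.05. Cx3cr1, the fractalkine receptor of patrolling monocytes, was at 1.01, 0.824 and 0.379 in saline and at 0.151, 0.693 and 0.394 in rhTM. Array rhTM 1, the low array of Ccl12 and Ccl17, was the lowest here as well, and the log2 fold change was -0.98 with an SE of 0.60 (-1.74 by its other probe) and was -0.38 without rhTM 1. Cxcl14, a chemokine of epithelium and stroma, had 0.64 (0.21 by its other probe) and was highest on rhTM 1, at 81.7 against 21.0 to 34.7 on the other 5, and its log2 fold change without that array was 0.14. Xcl1, the lymphotactin of NK and CD8 T cells, was well above background on all 3 saline arrays and on 1 of the 3 rhTM arrays, rhTM 3, so that no fold is given. It was at 0.0524, 0.0221 and 0.0391 in saline and at 0.0413 in rhTM 3, within the range of saline.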

How the data were processed

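RNA from whole lung (3 mice given saline, 3 given rhTM) was measured on 1-colour Agilent arrays, 1 per mouse. For each array the authors deposited scanner output, whose processed signal is a background-corrected intensity on a linear scale. The file headers name Feature Extraction 10.7.3.1, while the submitters' processing notes name version 9.1. A table of these intensity values, unscaled between arrays, was deposited as well. RNA extraction is given as RNeasy in the labels and as simplyRNA in the methods, and the control injection as saline or, in the general animal methods, PBS.

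Control spots and outlier-flagged spots were left out before the spots of a probe were averaged, and 398 of 56605 probes with only flagged spots on some array were dropped. Log2 signals were scaled to the 75th percentile of each array. Unversioned accessions were matched to RefSeq genes of GRCm38.p6 for 32994 probes and 22911 genes. The array was annotated on another build, so no probe coordinates are given. Probes had to be well above background on every array of saline, of rhTM or of both, and the brightest probe stood for its gene. Groups were taken from the sample titles. The fit was made in R 4.3.3 by limma 3.58.1 (lmFit, eBayes), Benjamini-Hochberg adjustment covered all 16370 genes, and the threshold was 0.05. Exact two-sided permutation tests over arrays were added for single genes. The fit was tested on simulated data. For a gene that missed this background limit on all arrays of a group, the fold is a bound. The dim group then enters with its own value or, if higher, with the lowest value that any detected probe had on that array. The small number of arrays limits the precision.

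The members and all gene lists were chosen with earlier results of these data known. Named beside the 10 members were the 3 genes with the largest log2 fold change by size in each other list, the receptors of the members, and the 5 genes with the highest correlation with Ccl2. Of the genes that this rule names, 1 is not reported here. Ly6c2, Ms4a4c, Itgam, Ccl8, Ccr7 and the macrophage markers were named after their values were seen. Alternatives were normexp background correction with an offset of 50 (on median spot signals), other normalizations, the authors' table (scaled, unscaled or blocked by slide), omission of both exchanged arrays, other filters on dim probes, blocks for slide or replicate number, averaging of all probes of a gene, the methods' t-test and leaving out each array.

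Replicate numbers did not pair the mice. The correlations of same-numbered deviations from the group means were -0.30, 0.44 and -0.45 over genes.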

Additional observations from a re-analysis of the deposited data

How the results depend on the processing

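Over 225 alternative values of the 9 tested members, 212 kept the direction, 13 reversed it, and no member passed an adjusted p of 0.05 in any. On the scanner output the blocks, the methods' t-test and the filters on dim probes left each member's fold change as it was. Those alternatives could therefore not reverse a direction, and averaging of probes changed only the value of Ccl4. Ccl12 and Ccr2 kept their direction in all 25 alternatives each, from -0.87 to -0.0048 (-0.035 in the scanner output without rhTM 1) and from -0.32 to -0.0061. The reversed log2 fold changes were, in the authors' table without scaling, -0.072 for Ccl3 and -0.035 for Ccl5, and, with that table blocked by slide, -0.039 for Ccl3. With an array left out of the scanner output, Ccl3 ranged from -0.023 (without saline 3) to 0.19, Ccl4 from -0.16 to 0.0026 (without saline 3; 0.0013 without rhTM 1), Ccl17 from -0.84 to 0.010 (without rhTM 1), and Ccl20 from -0.34 (without rhTM 3; -0.13 without saline 2) to 0.56. In the table, Ccl2 was at 0.0071, 0.051 and 0.042 (without saline 1, saline 2 and rhTM 1) and Ccl7 at 0.018 (without rhTM 3). The median of the members was -0.32 in the table without scaling, where that of all genes was -0.26. The count of genes with an adjusted p under 0.05 was 432 in the table blocked by slide (187 higher, 245 lower) and 0 to 561 with an array left out (561 for the table without rhTM 1, 443 higher and 118 lower), and 0 elsewhere. At an unadjusted p under 0.05 the count was 306 in limma on the scanner output, 197 with normexp, 1379 without rhTM 2, 1222 without both exchanged arrays, 2279 in the table, 4578 with the table blocked by slide and 5181 without scaling. The methods' t-test called 340 genes at that level and 0 after adjustment. With a replicate block 0 genes passed an adjusted p of 0.05 in limma, 377 an unadjusted p under 0.05, and the median of the members was again -0.09. The causes of these changes were not tested. Dim signal limits Ccl22, Ccr3 and Ccr4, which have no test.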
